A study of Mus musculus with 4 samples.

Results

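The NR4A nuclear receptors (*Nr4a1*, *Nr4a2*, *Nr4a3*), the EGR zinc-finger factors (*Egr1*, *Egr2*, *Egr3*) and the NAB corepressors (*Nab1*, *Nab2*) were examined in CD4 T cells that carried a Tox retrovirus. Genes were chosen by symbol, and all 8 were found among the 24369 genes listed and passed the low-count filter, which left 14143 genes. RNA-seq was done on 4 libraries, 2 of cells that received an empty retroviral vector (EV RV) and 2 of cells that received the Tox retrovirus (Tox RV). Both groups came from spleens of wild-type (WT) mice, C57BL/6 by the methods. Naïve CD4 T cells were activated with anti-CD3 and anti-CD28, transduced on day 2, restimulated on day 5 and sorted as CD4 GFP+ cells, with GFP carried by both vectors. The labels give recombinant human anti-CD28 as the third agent of the treatment, whereas the methods name recombinant human IL-2 at this place. Restimulation lasted 5 h, with biotinylated anti-CD3 and streptavidin in the methods and anti-CD3 with anti-CD28 in the design text. Tox came from a retroviral promoter in cells that were already activated, each group had 2 biological replicates, and no unstimulated library was analysed here, so the induction of these genes by the TCR itself was not measured.

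NR4A and EGR genes are switched on within minutes to hours of TCR signalling, NR4A genes largely through calcium, CREB and MEF2 and EGR genes largely through ERK, SRF and its ETS partners. NR4A receptors bind DNA without a known natural ligand and are best known in T cells for restraining activation and for their high level in exhausted and regulatory T cells. *Egr1* is a general immediate-early gene, and *Egr2* and *Egr3* are known for limiting T cell activation and for anergy. *Nab1* and *Nab2* encode proteins that bind EGR factors and repress their targets, and *Nab2* is itself induced by EGR factors in a negative feedback loop.

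Promoter windows of all 3 NR4A genes are printed with those of *Egr2* and *Nab1* to show which elements for CREB, SRF and EGR factors their letters hold. Elements for MEF2 and for the ETS partners of SRF were not searched. Of the 8 genes, 6 had a window in the RefSeq promoter table (build GRCm38.p6), which covers 250 bases before and 50 bases after a gene's start. For *Egr2*, which had 5 windows, the one shown lies at the start of the transcript listed for it in the files. In the GENCODE annotation, a RefSeq-matched transcript start lay near the windows of *Nr4a1* and *Nr4a2*. None was found near those of *Nr4a3* and *Nab1*. Capitals mark the short cAMP response element (CGTCA or its reverse complement), the CArG box that SRF binds, and the EGR element (GCGTGGGCG or its reverse complement).
*Nr4a1* (chr15:101266596-101266895, plus strand): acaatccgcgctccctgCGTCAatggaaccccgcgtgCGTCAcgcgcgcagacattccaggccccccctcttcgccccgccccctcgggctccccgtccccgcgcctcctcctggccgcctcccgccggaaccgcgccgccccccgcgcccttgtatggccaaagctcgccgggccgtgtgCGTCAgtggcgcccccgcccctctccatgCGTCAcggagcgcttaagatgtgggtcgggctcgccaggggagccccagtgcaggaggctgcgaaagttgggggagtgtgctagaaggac
*Nr4a2* (chr2:57123954-57124253, minus strand): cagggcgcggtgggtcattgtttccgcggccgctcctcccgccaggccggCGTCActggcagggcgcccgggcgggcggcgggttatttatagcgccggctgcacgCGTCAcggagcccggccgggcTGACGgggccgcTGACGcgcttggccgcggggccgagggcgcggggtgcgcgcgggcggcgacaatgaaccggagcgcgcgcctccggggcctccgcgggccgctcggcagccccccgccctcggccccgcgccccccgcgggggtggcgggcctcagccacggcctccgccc
*Nr4a3* (chr4:48045055-48045354, plus strand): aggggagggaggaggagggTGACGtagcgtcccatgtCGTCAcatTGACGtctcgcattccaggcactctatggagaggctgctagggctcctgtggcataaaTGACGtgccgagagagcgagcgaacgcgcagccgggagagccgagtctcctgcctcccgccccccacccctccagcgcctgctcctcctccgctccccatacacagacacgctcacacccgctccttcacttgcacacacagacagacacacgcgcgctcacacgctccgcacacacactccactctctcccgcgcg
*Egr2* (chr10:67537619-67537918, plus strand): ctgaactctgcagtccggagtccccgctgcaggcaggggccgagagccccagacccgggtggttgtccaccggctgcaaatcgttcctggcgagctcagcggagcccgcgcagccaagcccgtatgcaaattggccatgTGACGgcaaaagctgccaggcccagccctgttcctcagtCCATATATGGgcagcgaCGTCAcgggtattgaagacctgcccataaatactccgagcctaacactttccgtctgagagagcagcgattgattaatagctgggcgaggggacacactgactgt
*Nab1* (chr1:52500399-52500698, minus strand): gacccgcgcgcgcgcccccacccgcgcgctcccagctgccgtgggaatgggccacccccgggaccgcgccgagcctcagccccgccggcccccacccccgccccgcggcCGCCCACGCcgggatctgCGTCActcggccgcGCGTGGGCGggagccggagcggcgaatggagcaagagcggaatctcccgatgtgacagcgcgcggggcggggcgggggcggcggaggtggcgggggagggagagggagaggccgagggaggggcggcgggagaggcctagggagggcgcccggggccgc

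Each NR4A window held 4 short cAMP response elements, a number that 0.234% of 32544 mouse promoter windows of this length reached, whereas 20.9% held at least 1. The *Egr2* window held 2 of them and 1 CArG box, which 1.64% of windows had. The *Nab1* window held 2 EGR elements, present in 0.618% of windows, and 1 short cAMP response element. None of these 5 windows held the full cAMP response element TGACGTCA (1.80% of windows), which contains the short element, the NR4A monomer element AAAGGTCA (1.52%) or the AP-1 element TGANTCA (7.79%). The NFAT core GGAAA (61.5%) was found 1 time in the *Nr4a2* and 1 time in the *Egr2* window. The window of *Nab2*, which is not printed, held none of the elements named here, the EGR element included. Motifs were searched on both strands, and a match describes the letters only, since binding was not measured here.

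The libraries held 46989997 to 74548723 expected counts, RSEM's estimate of the reads per gene, and 45S pre-ribosomal RNA took 7.14% to 24.7% of them, most in EV RV replicate 1. *Tox* had 11.7 and 5.73 CPM (TMM-normalized counts, scaled to a common library size) with the empty vector and 121 and 99.9 CPM with the Tox vector, which placed each library on the side of its label. Of 9 markers of CD4 T cells 8 were listed, with a summed level of 1746 to 2472 CPM in EV RV and 2129 to 2362 CPM in Tox RV libraries. B cell markers summed to 1.40 and 1.75 CPM in EV RV and 1.49 and 1.56 CPM in Tox RV libraries, with *Ms4a1* and *Pax5* at 0 in each, and myeloid markers summed to 4.81 to 6.11 and 4.74 to 6.43 CPM. The 8 markers of CD8 T and NK cells, with *Ncr1* at 0, summed to 136 and 125 CPM in EV RV libraries. In Tox RV libraries they summed to 105 and 82.5 CPM (replicate 1 first), after a sort for CD4 in both groups. Of these sums *Eomes* alone made up 79.8 and 108.6 CPM in EV RV and 72.2 and 71.2 CPM in Tox RV libraries. *Cd8a* had at most 2.14 CPM and *Cd8b1* at most 3.21 CPM in a library. The part of such transcripts in the values given here was not tested. Across all genes tested the EV RV replicates differed by an SD of 0.69 on the log2 scale and the Tox RV replicates by 0.44, so changes are also given with single libraries left out. In bulk RNA from sorted cells, fewer cells that express a gene and less RNA per cell cannot be told apart.

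All 8 genes were expressed in every library, and *Egr2* was the most abundant of them in each. Levels are compared between genes in TPM, RSEM's estimate of relative transcript number, which takes transcript length into account. The mean TPM over the 4 libraries was 68.3 for *Egr2*, 55.2 for *Nr4a1*, 46.1 for *Nab2*, 33.2 for *Nr4a3*, 27.5 for *Nab1*, 14.6 for *Egr3*, 14.3 for *Egr1* and 9.18 for *Nr4a2*. *Egr2* thus had a higher mean TPM than 88.1% of the genes tested, and *Nr4a2* than 45.6%. The ranges of every pair of neighbours in this order overlapped. Within a library, *Egr2* exceeded *Nr4a1* in 4 of 4 libraries, whereas *Nr4a3* exceeded *Nab1* in 2 of 4 and *Egr3* exceeded *Egr1* in 2 of 4, so the order of these last pairs was not resolved. EV RV replicate 2 departed most from the order, where *Nab2* and *Nab1* both exceeded *Nr4a1*.

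**Figure D1:**
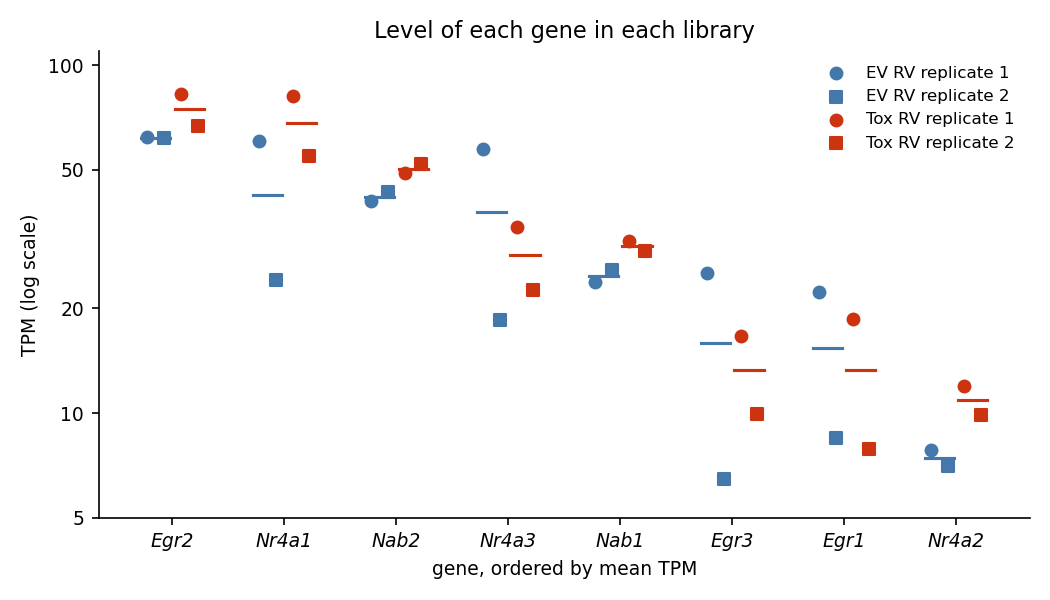
TPM of each gene on a log axis in the 4 libraries, with EV RV in blue, Tox RV in red, circles for replicate 1, squares for replicate 2 and bars for the group means. *Egr2*, *Nab1*, *Nab2* and *Nr4a2* have both Tox RV points above both EV RV points, whereas the points of *Nr4a1*, *Nr4a3*, *Egr1* and *Egr3* spread widely within each group.

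The genes fell into 2 sets by how much they varied. *Egr2*, *Nab1*, *Nab2* and *Nr4a2* differed by 1.38 to 1.77-fold between their highest and lowest library in CPM, and *Nr4a1*, *Nr4a3*, *Egr1* and *Egr3* by 2.61 to 3.72-fold. In the second set the replicates of 1 group already differed widely. EV RV replicate 1 exceeded EV RV replicate 2 by 2.38-fold in *Nr4a1*, 2.96-fold in *Nr4a3*, 2.50-fold in *Egr1* and 3.72-fold in *Egr3*, and 6.31%, 3.37%, 5.43% and 1.82% of all genes tested had a larger difference between these libraries in either direction. Tox RV replicate 1 exceeded Tox RV replicate 2 by 1.49, 1.52, 2.37 and 1.68-fold in the same genes. A replicate 1 level at least 1.5 times that of replicate 2 in both groups was found for 3 of the 8 genes (*Nr4a3*, *Egr1* and *Egr3*) and for 3.39% of all genes tested. Of the 6 tested markers of CD8 T and NK cells, 4 were also higher in replicate 1 of each group (32.3% of all genes). *Klrd1* had 14.2 and 1.90 CPM in EV RV and 10.2 and 1.99 CPM in Tox RV libraries. The others were *Klrk1* (36.6, 10.5, 17.2 and 4.86 CPM), *Klrb1c* (1.09, 0.18, 0.70 and 0.19 CPM) and *Cd8b1* (3.10, 1.73, 3.21 and 2.51 CPM). *Eomes* (79.8, 108.6, 72.2 and 71.2 CPM) and *Cd8a* (1.54, 2.14, 1.56 and 1.75 CPM) were not higher in replicate 1 of both groups. The part of such transcripts in the spread was not tested. In contrast, *Egr2* differed by 0.954-fold between the EV RV replicates, *Nab1* by 0.880-fold and *Nab2* by 0.905-fold. The labels do not say that a replicate number marks a shared mouse or day, so whether replicates 1 had something in common is not known.

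**Figure D2:**
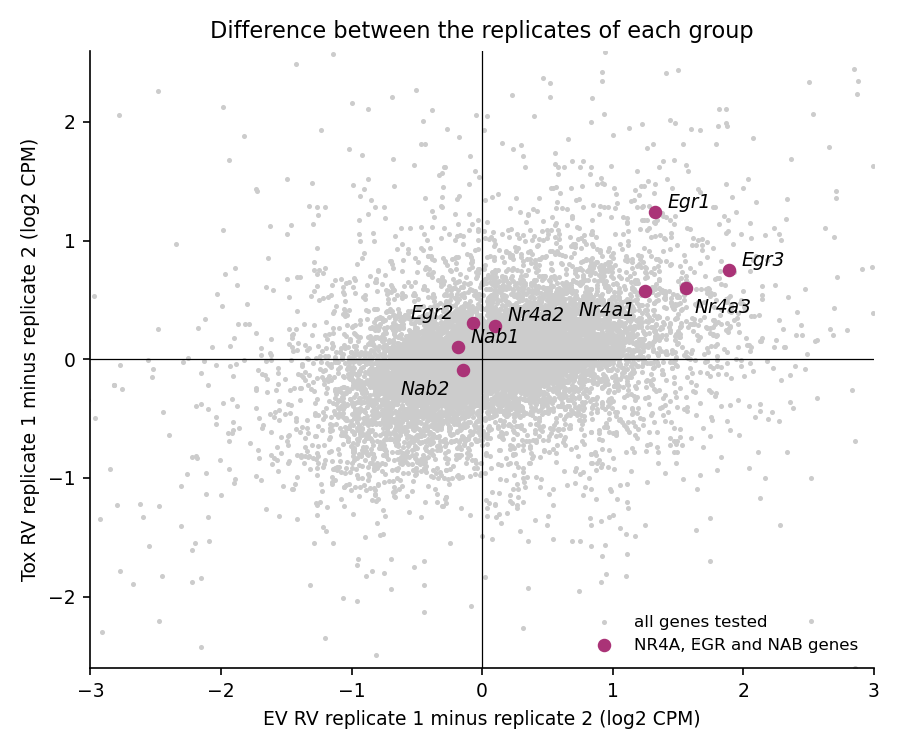
Replicate 1 minus replicate 2 in log2 CPM, for EV RV on the horizontal and Tox RV on the vertical axis, with grey points for the genes tested (64 of them lie outside the axes) and purple points for the 8 genes. *Nr4a1*, *Nr4a3*, *Egr1* and *Egr3* lie in the upper right, where replicate 1 is higher in both groups, and the other 4 lie near 0.

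None of the 8 genes passed an adjusted p-value of 0.05 between Tox RV and EV RV cells by edgeR's quasi-likelihood test adjusted over all genes tested. The same held for every gene in the table (0%), *Tox* included. At an unadjusted p-value below 0.05 there was 1 of the 8 genes (*Nr4a2*, higher in Tox RV cells) and 3.62% of all genes, made up of 1.07% that were higher and 2.55% that were lower. A fold change above 2 was reached by 0 of the 8 genes and by 3.38% of all genes. DESeq2 called 0 of the 8 and 0.121% of the genes it tested, with 2 of the 8 (*Nr4a1* and *Nr4a2*) and 3.21% of genes at an unadjusted p-value below 0.05. The log2 fold change was above 0 for 5 genes and below 0 for 3 (above 0 for 50.4% of all genes), and its median was 0.35 against 0.0036 over all genes. Each Tox RV value exceeded each EV RV value in 4 of the 8 genes and in 18.6% of all genes, and lay below them in 0 of the 8 and in 17.4% of all genes, so that the groups did not overlap in 4 of the 8 and in 36% of all genes. These counts rest on 8 genes from 4 libraries, and 2 libraries against 2 cannot give an exact two-sided permutation p-value below 0.333 for any single gene.

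Of the NR4A receptors, *Nr4a1* and *Nr4a2* had the largest log2 fold changes of the 8 genes, and *Nr4a3* had the lowest. *Nr4a1* (Nur77; chromosome 15 of mm10, 101254269 to 101274795, plus strand), a widely used reporter of TCR signal strength, had 86.3 CPM in the first and 36.3 CPM in the other EV RV library, against 127 and 85.0 CPM with the Tox vector (replicate 1 first, here and throughout). EV RV replicate 2 was the low library, and EV RV replicate 1 lay just above Tox RV replicate 2, so the groups overlapped. Group means were 61.3 ± 35.4 CPM with the empty vector and 105.8 ± 29.4 CPM with the Tox vector (SD, n = 2 each). This gave a log2 fold change of 0.79 (standard error 0.43, 95% interval -0.28 to 1.86) and an adjusted p of 0.897 by edgeR's quasi-likelihood test. Leaving out EV RV replicate 1 gave 1.54, and leaving out EV RV replicate 2 gave 0.30.

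*Nr4a2* (Nurr1; chromosome 2, 57106830 to 57124003, minus strand) had the lowest mean TPM of the 8 genes, with 14.0 and 13.1 CPM under the empty and 23.1 and 18.9 CPM under the Tox vector. Each Tox RV value exceeded each EV RV value, and the EV RV values lay close together. Its log2 fold change was 0.64 (standard error 0.19, 95% interval 0.16 to 1.11), or 1.55-fold, with an unadjusted p of 0.0175, rank 148 of 14143 genes, and an adjusted p of 0.897 by edgeR. It ranged from 0.48 to 0.78 with each library left out, so that no single library set its direction. *Nr4a3* (Nor1; chromosome 4, 48045153 to 48086447, plus strand) had 59.6 and 20.2 CPM with the empty and 38.8 and 25.5 CPM with the Tox vector. Both Tox RV values lay between the EV RV values. The log2 fold change of -0.31 (standard error 0.51, 95% interval -1.57 to 0.95) had an adjusted p of 0.922 by edgeR, and it was 0.67 without EV RV replicate 1 and -0.88 without EV RV replicate 2.

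Of the EGR factors, *Egr2* was higher in both Tox RV libraries, and *Egr1* and *Egr3* overlapped between the groups. *Egr2* (chromosome 10, 67535475 to 67542188, plus strand) had 105 and 109.7 CPM with the empty and 152 and 123 CPM with the Tox vector. The groups did not overlap, and the Tox RV libraries differed more from each other than the EV RV libraries did. With a log2 fold change of 0.36 (standard error 0.18, 95% interval -0.09 to 0.80, adjusted p = 0.897 by edgeR), *Egr2* differed by 1.28-fold, and leaving out 1 library gave 0.19 to 0.50. *Egr1* (chromosome 18, 34859823 to 34864984, plus strand) had 39.1 and 15.6 CPM with the empty and 35.5 and 15.0 CPM with the Tox vector. Replicate 1 was the higher library in each group and the groups overlapped almost fully. A log2 fold change of -0.11 resulted (standard error 0.55, 95% interval -1.47 to 1.25, adjusted p = 0.974 by edgeR), which was 0.69 without EV RV replicate 1 and -0.87 without Tox RV replicate 1. *Egr3* (chromosome 14, 70077203 to 70082614, plus strand), which shares many targets with *Egr2*, had 56.6 and 15.2 CPM with the empty and 40.5 and 24.1 CPM with the Tox vector. As in *Nr4a3*, both Tox RV values lay between the EV RV values. Its log2 fold change was -0.15 (standard error 0.61, 95% interval -1.65 to 1.35, adjusted p = 0.969 by edgeR), against 1.08 without EV RV replicate 1 and -0.80 without EV RV replicate 2. The intervals of *Egr1* and *Egr3* include a 2-fold change in either direction, and scaling by library totals, which moved the median of all genes to 0.12, turned their log2 fold changes to 0.040 and 0.020.

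The NAB corepressors were higher in both Tox RV libraries and differed little between replicates. *Nab1* (chromosome 1, 52457294 to 52500679, minus strand) had 70.7 and 80.3 CPM with the empty and 101 and 93.9 CPM with the Tox vector. *Nab2* (chromosome 10, 127660918 to 127668568, minus strand) had 57.9 and 64.0 CPM with the empty and 75.4 and 80.1 CPM with the Tox vector. In both genes the groups did not overlap. Log2 fold changes were 0.37 for *Nab1* (standard error 0.17, 95% interval -0.05 to 0.78) and 0.35 for *Nab2* (standard error 0.17, 95% interval -0.06 to 0.76), that is 1.29-fold and 1.28-fold, each with an adjusted p of 0.897 by edgeR. With each library left out they ranged from 0.27 to 0.47 and from 0.28 to 0.43. *Nab2* shares 40 exonic bases with *Stat6* and 151 with *Nemp1* on the other strand and 1050 with the antisense gene *Gm16229*, which was not listed, and the use of strand in counting is not given in the sources used here, so reads there cannot be told apart. *Stat6* itself had a log2 fold change of -0.05.

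**Figure D3:**
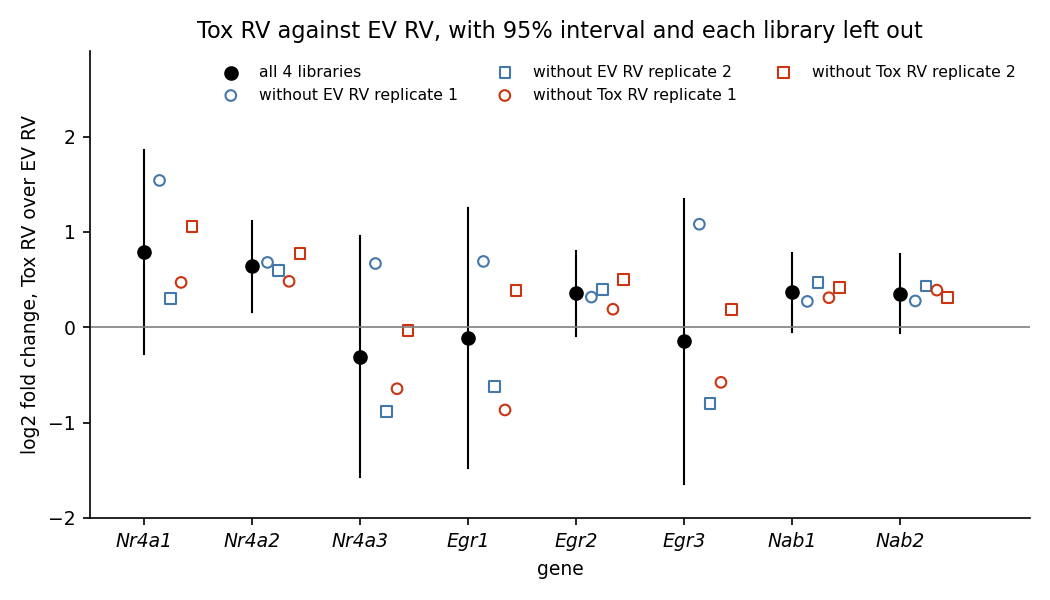
Log2 fold change of Tox RV over EV RV for each gene, as filled points with 95% intervals from edgeR's quasi-likelihood fit on 4 libraries, and as open symbols with 1 library left out (blue for EV RV, red for Tox RV, circles for replicate 1, squares for replicate 2). Without EV RV replicate 1 all 8 values are above 0, and for *Nr4a3*, *Egr1* and *Egr3* the sign depends on which library is left out.

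The direction of *Nr4a3*, *Egr1* and *Egr3* depended on which library was left out. Without EV RV replicate 1 all 8 genes had a log2 fold change above 0, as did 50.5% of all genes in that fit, and the median of the 8 was 0.67. In that fit, in which the lone EV RV library is assumed to vary like the Tox RV libraries, *Nr4a1*, *Nr4a2* and *Egr3* had an unadjusted p-value below 0.05 (3.28% of all genes had one with a positive change), with adjusted p-values of 0.330, 0.524 and 0.546 by edgeR. Without EV RV replicate 2 the same 5 genes were higher and the same 3 lower as with all libraries, 5 of the 8 and 29.7% of all genes had an unadjusted p-value below 0.05, and the smallest adjusted p-value of the 8 was 0.0933 (*Nab1*). The genes below 0.05 in that fit were *Nr4a2*, *Nab1* and *Nab2*, which were higher, and *Nr4a3* and *Egr3*, which were lower. *Nr4a1* and *Egr2*, also higher, were not among them. *Egr3* thus had opposite signs without EV RV replicate 1 (log2 fold change 1.08) and without EV RV replicate 2 (-0.80). Each of these fits rests on a lone EV RV library. Leaving out 45S pre-ribosomal RNA, whose share was highest in EV RV replicate 1, gave the same signs as with all libraries and a median of 0.35. This drops 1 gene before TMM scaling, which already limits the weight of a single gene. It could thus change little, and other differences of that library were not tested.

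Ratios between the genes of 1 library do not depend on how libraries are scaled. Of the 28 pairs among the 8 genes, the TPM ratio separated the groups without overlap in 5, against 34.5% of all pairs of tested genes, so that separated ratios were not frequent among these genes. The shift between groups exceeded 2 times the larger gap between replicates in 1 pair only, *Nr4a1* to *Nr4a3*. The share of all gene pairs past this stricter rule is not given, so that count has no background here. The TPM of *Nr4a1* was 1.05 and 1.31 times that of *Nr4a3* with the empty and 2.38 and 2.42 times with the Tox vector. The ratio was thus higher in both Tox RV libraries by a mean of 1.03 on the log2 scale, against 0.31 for the larger gap between replicates. Of the summed NR4A TPM, *Nr4a1* made up 48.1% and 48.6% with the empty and 63.8% and 62.8% with the Tox vector, and *Nr4a3* made up 45.7% and 37.2% against 26.8% and 25.9%. This pair was picked as the most separated of the 28, so it is a description, and its exact two-sided permutation p-value could not fall below 0.333.

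The other pairs without overlap were *Nr4a1* to *Egr1*, *Nr4a1* to *Egr3*, *Nr4a2* to *Egr2* and *Nr4a2* to *Nab1*. These pairs share *Nr4a1* or *Nr4a2* and are not independent of each other. The balance of EGR factors to their corepressors did not separate the groups. The summed TPM of *Egr1*, *Egr2* and *Egr3* was 1.70 and 1.11 times that of *Nab1* and *Nab2* with the empty and 1.47 and 1.04 times with the Tox vector, higher in replicate 1 of each group. *Egr2* made up 56.5% to 80.5% of the summed EGR TPM, and the *Nab2* to *Nab1* ratio lay between 1.56 and 1.78 in the 4 libraries.

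**Figure D4:**
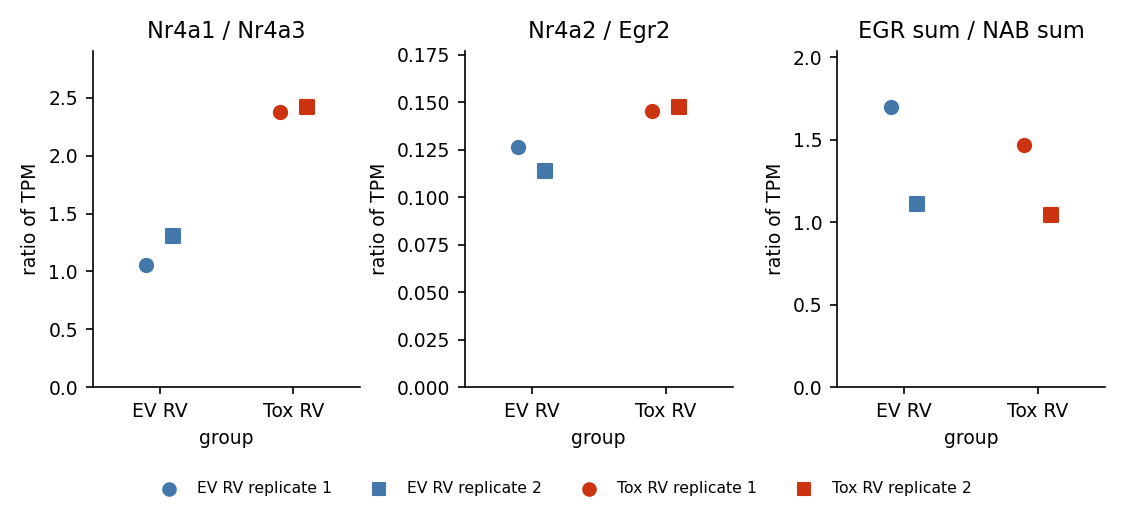
Ratios of TPM within each library, from 0, for *Nr4a1* over *Nr4a3*, *Nr4a2* over *Egr2* and the EGR sum over the NAB sum, with EV RV in blue, Tox RV in red, circles for replicate 1 and squares for replicate 2. *Nr4a1* over *Nr4a3* is 1.05 and 1.31 with the empty and 2.38 and 2.42 with the Tox vector, whereas the EGR sum over the NAB sum overlaps between the groups.

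Profiles over the 4 libraries were compared by the root mean square difference of log2 CPM, each gene centred on its own mean, among 8505 other genes with a mean of at least 10 CPM. Among the 8 genes *Nab1* and *Nab2* were closest (0.068), followed by *Egr2* and *Nab1* (0.084), *Egr2* and *Nab2* (0.14) and *Nr4a2* and *Egr2* (0.15). *Nr4a3* and *Egr3* came next (0.17). The genes most like *Nr4a1* were *Hic1* (0.11), a zinc-finger repressor, *Myo1f* (0.11), a myosin of leukocytes, and *Tagap* (0.16), a GTPase-activating protein of activated T cells. Those most like *Nr4a2* were *Vav1* (0.046), an exchange factor that acts downstream of the TCR, *Glipr1* (0.055) and *Sla2* (0.055), an adaptor that dampens TCR signalling. *Nr4a3* was most like *Ldlrad4* (0.088), *Arhgef1* (0.11) and *Cables1* (0.12), *Egr1* most like *Upp1* (0.037), *Myo10* (0.083) and *Itgae* (0.091), and *Egr3* most like *Rasgrp4* (0.076), *Cd101* (0.12) and *Sytl2* (0.12). *Egr2* was most like *Bcl2a1d* (0.0095), *Mecr* (0.020) and *Slc25a20* (0.025), *Nab1* most like *Rnf113a2* (0.0027), *Nagpa* (0.0087) and *Fam58b* (0.0093), and *Nab2* most like *Nceh1* (0.0041) and *Plod2* (0.0094). With only 4 libraries many genes come this close, for instance 188 genes were closer to *Nab1* than *Nab2* was, and *Bcl2a1d* belongs to a family of near-identical copies whose counts are uncertain.

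Genes upstream of NR4A and EGR were not called. Of 14 listed 13 were tested, 0 rose and 0 fell past an adjusted p-value of 0.05, 5 were higher and 8 lower, and the median log2 fold change was -0.27, against 0.0036 over all genes. *Creb1* had 0.28 (standard error 0.17) and *Srf* 0.20 (0.17), whereas *Crem*, whose short isoform ICER represses CREB targets, had -0.89 (0.23) and *Mkl1*, a coactivator of SRF, -0.75 (0.38). *Crem* was lower in both Tox RV libraries, with an unadjusted p of 0.0083 and an adjusted p of 0.897 by edgeR. For *Mkl1* the groups overlapped, and EV RV replicate 1 was the high library (85.0 and 37.2 CPM in EV RV, 37.4 and 35.1 CPM in Tox RV). *Mef2c* did not reach the minimum count. Of 7 family members and partners 5 were tested, 0 passed, and the median was -0.05, with *Chd4*, a remodeller that NAB proteins recruit, at 0.061 and *Hcfc1*, an EGR cofactor, at -0.36. *Egr4*, with 2 to 8 counts in a library, and *Rxrg*, with 0 to 2, were too low to be tested.

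Genes linked to EGR2 and EGR3 in T cells, such as ubiquitin ligases and diacylglycerol kinases of anergy, were not called. All 17 were tested and 0 passed, with 6 higher (50.4% of all genes were higher), 11 lower and a median log2 fold change of -0.18. The highest were *Crtam* (0.98, standard error 0.30), an adhesion receptor of activated T cells, and *Tnfrsf9* (0.50, 0.17), which encodes 4-1BB, and the lowest were *Fasl* (-0.44, 0.24), a death ligand, and *Cblb* (-0.43, 0.29), a ubiquitin ligase that restrains TCR signalling. Of the 12 genes linked to NR4A receptors, 7 were higher and 5 lower with a median of 0.12, and 0 passed by edgeR. *Tox* (3.68, standard error 0.38), which the retrovirus carries, *Tox2* (2.51, 0.74), which stayed below 1 CPM in each library, and *Pdcd1* (1.77, 0.19) were the highest, and *Tigit* (-0.85, 0.31) and *Ikzf2* (-0.65, 0.43) the lowest. DESeq2 called *Tox* and *Pdcd1* of this list. EV RV replicate 1 was the high library in *Ikzf2* (143 and 55.0 CPM in EV RV, 60.6 and 66.2 CPM in Tox RV). The same held for *Cblb* of the list before (690, 393, 419 and 383 CPM), and in both genes the groups overlapped. *Tigit* (19.1, 10.7, 8.63 and 7.84 CPM) was lower in both Tox RV libraries, and so was *Fasl* (72.0, 82.0, 68.1 and 45.4 CPM).

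The other genes of the early TCR response had a median below 0. All 31 were tested and 0 passed, with 13 higher, 18 lower and a median log2 fold change of -0.13. *Fosl1* (0.69, standard error 0.52) and *Tnfrsf9* (0.50, 0.17) were the highest, and *Jun* (-0.92, 0.24) and *Zfp36* (-0.77, 0.39), which encodes an mRNA decay factor, the lowest. Each Tox RV value exceeded each EV RV value in 1 of the 31 genes (18.6% of all genes) and lay below them in 7 (17.4% of all genes lay below). Replicate 1 exceeded replicate 2 in both groups in 20 of the 31 and in 5 of the 8 genes, against 32.3% of all genes tested. EV RV replicate 2 lay close to the Tox RV libraries in *Zfp36* (21.8 and 9.72 CPM in EV RV, 9.25 and 9.19 CPM in Tox RV). In *Jun* it lay further from them (155 and 101 CPM against 68.1 and 66.9 CPM). *Tnfrsf9*, *Lag3* and *Irf4* stand in more than 1 list, and the difference between lists was not tested. Medians of these other lists are not given with single libraries left out.

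**Figure D5:**
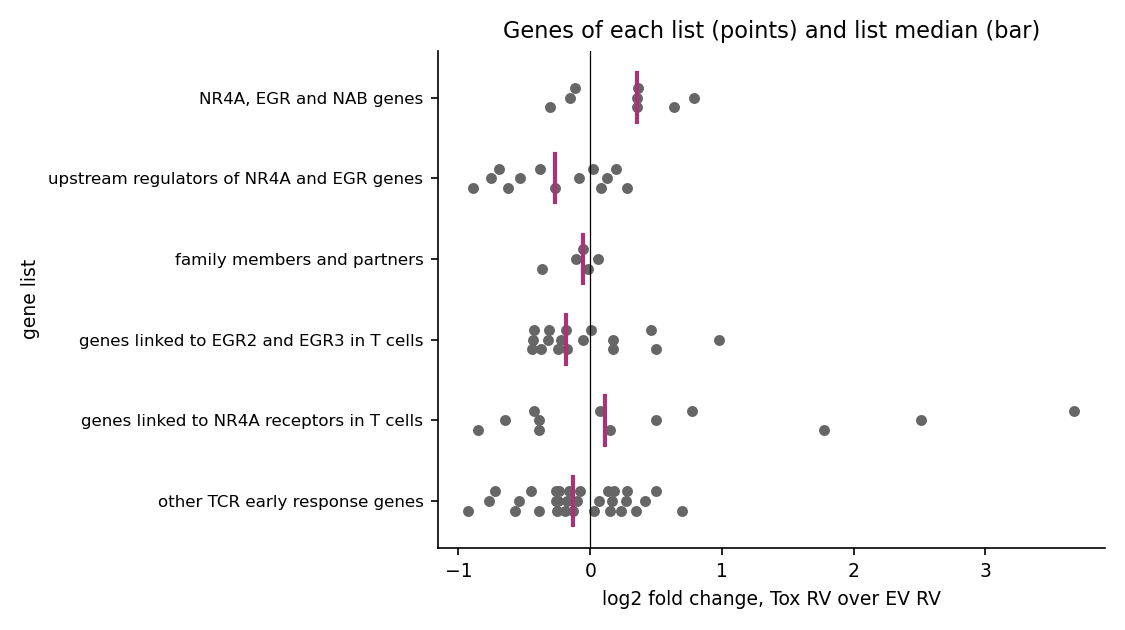
Log2 fold change of Tox RV over EV RV for the tested genes of each list (grey points) and the list median (purple bar). The median is 0.35 for the NR4A, EGR and NAB genes and between -0.27 and 0.12 for the other 5 lists, whose points lie on both sides of 0.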

How the data were processed

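RNA-seq was measured in 4 libraries, 2 of EV RV and 2 of Tox RV cells, grouped by the sample labels. The authors checked reads with fastqc, aligned them to mm10 transcripts with bowtie1 and quantified each gene with RSEM (version and strand setting not given in the sources used here). The deposited expected counts are RSEM estimates without normalization. The deposited TPM values are relative transcript numbers, scaled to one total and to length. A further deposited table of the same libraries on another scale was not used.

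Expected counts were rounded and tested in R 4.3.3 with edgeR 4.0.16 (filterByExpr, minimum count 10, TMM, glmQLFit and glmQLFTest, no block, Benjamini-Hochberg over 14143 genes). Standard errors and 95% intervals come from the quasi-likelihood F statistic. Alternatives were DESeq2 1.42.0, limma 3.58.1 on log2(TPM + 1) and log2(TPM + 0.1), other scalings, no filter, the replicate number as a block, and each library left out. The fit was tested on simulated data with the same spread per gene in both groups. The libraries here depart from that setting, since the EV RV replicates differed more than the Tox RV replicates (SD 0.69 against 0.44). Depth was 46989997 to 74548723 expected counts. Each group had 2 libraries, so p-values rest on the spread between these.

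The 8 genes and the gene lists were chosen with earlier results of these data known. Named list genes are the 2 highest and 2 lowest of each list, any that passed, *Tox* and *Pdcd1*, and for likeness the 3 nearest profiles, of which 1 is not reported here. For the list of family members and partners, *Chd3* and *Rxrb*, also due under this rule, had log2 fold changes of -0.018 and -0.10. *Mef2c*, *Stat6*, *Nemp1*, the single markers of CD8 T and NK cells and genes too low to be tested were named after their values were seen.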

Additional observations from a re-analysis of the deposited data

How the results depend on the processing

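The 8 genes had 0 calls at an adjusted p-value of 0.05 under each of the 12 alternatives and with a fold change above 2 required. Their signs were kept in 87 of 96 values. Scaling by library totals moved the median of all genes to 0.12 and gave log2 fold changes of 0.040 for *Egr1* and 0.020 for *Egr3*, both below that shift. *Egr3* was also positive in limma on log2(TPM + 0.1), at 0.0055. With each library left out the log2 fold change ranged from -0.88 to 0.67 for *Nr4a3*, from -0.87 to 0.69 for *Egr1* and from -0.80 to 1.08 for *Egr3*, positive for all 3 without EV RV replicate 1 and for *Egr1* and *Egr3* without Tox RV replicate 2. The median of the 8 ranged from 0.25 to 0.67. Across all genes 0 were called by edgeR's quasi-likelihood test with the filter, against 22 by DESeq2, 22 without the filter, and 1 to 600 with each library left out, the 600 without EV RV replicate 2. The causes of these counts were not tested. In 4 to 5 of the 8 genes, all Tox RV values exceeded all EV RV values under 4 other scalings. These scalings were chosen after the data were seen. The count of 5 came from library totals, which also moved the median of all genes to 0.12. The share of all genes with such an order is not given for these scalings, so the counts have no background here.

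The replicate number was tried as a block, although it is not known to pair the libraries (the deviations of same-numbered libraries correlated at 0.30 across genes). With this block 16 genes were called, none of the 8, whose smallest adjusted p-value was 0.182 (*Nr4a1*), and *Egr3* turned to 0.084. Precision was limited by 2 libraries a group.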
